A study of Mus musculus with 4 samples.

Results

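The imprinted growth genes examined here are *Igf2*, *H19*, *Meg3*, *Rian*, *Peg3*, *Plagl1*, *Cdkn1c*, *Grb10*, *Mest* and *Igf2r*. They were chosen by name from the deposited expression table after its repeated lines were reduced to 1 per gene symbol, and all 10 were found among the 12693 symbols. All 10 also passed the filter on low values, a mean of at least 10 normalized read counts over the 4 samples. RNA was sequenced from brain ECs at embryonic day 18, which the study sorted with the endothelial surface protein CD31 from the cerebral cortex of C57BL/6 mice. There were 2 wild-type samples and 2 samples from embryos with the genotype FOXQ1fl/fl;Tie2-Cre, called *Foxq1* cKO below. In these embryos both copies of *Foxq1*, a forkhead transcription factor gene, carry flox sites that Cre recombinase cuts. The study's controls were littermates without the Cre transgene, and the labels call them WT. The Tie2 promoter that drives Cre is active in ECs and also in blood cell lineages. Whether a sample came from 1 embryo or from several was not stated in the sources used here, so the p-values below measure the spread between these samples.

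An imprinted gene is read from only 1 parental copy, and DNA methylation laid down in the germ line marks which. Many imprinted genes set the growth of the fetus and the placenta, and by a common rule the paternally expressed ones promote growth while the maternally expressed ones restrain it. In the fetal brain *Igf2* is known from the meninges, the choroid plexus and the cells around vessels. Among the members, *Igf2*, *Peg3*, *Plagl1* and *Mest* are read from the paternal copy, and *H19*, *Meg3*, *Rian*, *Cdkn1c* and *Igf2r* from the maternal copy. *Grb10* is read from the maternal copy in most tissues and from the paternal copy in neurons. The table gives no allele, so a level here is the sum of both parental copies.

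A normalized read count is the number of reads on a gene divided by 1 size factor per sample, as deposited by the authors. The samples held between 15827166 and 21466436 reads on listed genes. Differences were tested with limma on log2 of the value plus 1, a scale that understates the change of low genes. A gene is called here at an unadjusted p under 0.05, and the p adjusted over all genes by the Benjamini-Hochberg method is given beside it. The targeted gene went with the labels, since *Foxq1* had 353 and 297 normalized read counts in wild-type against 5.44 and 32.6 in *Foxq1* cKO samples. The sort was checked against marker genes. All 15 endothelial markers were listed, with a summed level of 416237 to 443017 in wild-type against 372820 to 415645 in *Foxq1* cKO samples. Of 13 pericyte and smooth muscle markers 10 were listed, at 158648 to 162145 and 151258 to 166423, and *Acta2*, *Tagln* and *Myh11* had no row. The 11 microglia and macrophage markers summed to 9919 to 12313 in wild-type against 7643 to 7931 in *Foxq1* cKO samples, without overlap. Taken singly they were mixed, since 6 had a negative and 5 a positive log2 fold change. The groups of 7 overlapped, and 1 was called lower. Of 12 fibroblast markers 7 were listed, at 9374 to 10283 and 6035 to 9949, and *Dcn* and *Lum* had no row. Of 8 choroid plexus markers only *Ttr* had a row, at 1.99 to 41.3 in wild-type against 3.05 to 27.2 in *Foxq1* cKO samples. The 13 listed neuronal and progenitor markers of 16 summed to 23926 to 24646 in wild-type against 23556 to 24350 in *Foxq1* cKO samples. The 7 listed erythroid markers of 9 summed to 15770 to 20859 and 16022 to 20516. The part of these other cells in the results below was not tested, and fewer cells of a type cannot be told apart from less RNA per cell.

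Of the 10 imprinted growth genes, *Meg3* and *Plagl1* were higher in *Foxq1* cKO than in wild-type brain ECs at an unadjusted p under 0.05 (limma), and none was lower. Over all 12472 genes tested, 2.17% were called higher and 3.05% lower, or 5.22% in either direction. None of the 10 passed adjustment in limma (adjusted p = 0.857 for both genes), in edgeR or in DESeq2. Over all genes, limma and edgeR called 0 at an adjusted p under 0.05 and DESeq2 called 59. The lowest adjusted p of any gene in limma was 0.857, so every call below rests on an unadjusted p from the fit across all genes. An exact two-sided permutation test of 1 gene over these 4 samples can reach no p below 0.333. The 2 groups did not overlap for 6 members. *Meg3*, *Plagl1* and *Igf2* were higher in both *Foxq1* cKO samples, and *Grb10*, *Mest* and *H19* were lower in both. Groups without overlap made up 36% of all genes tested, 18% in each direction. The log2 fold changes of the 10 ran from -0.33 to 0.76 with a median of -0.06, against a median of 0.01 over all genes.

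**Figure D1:**
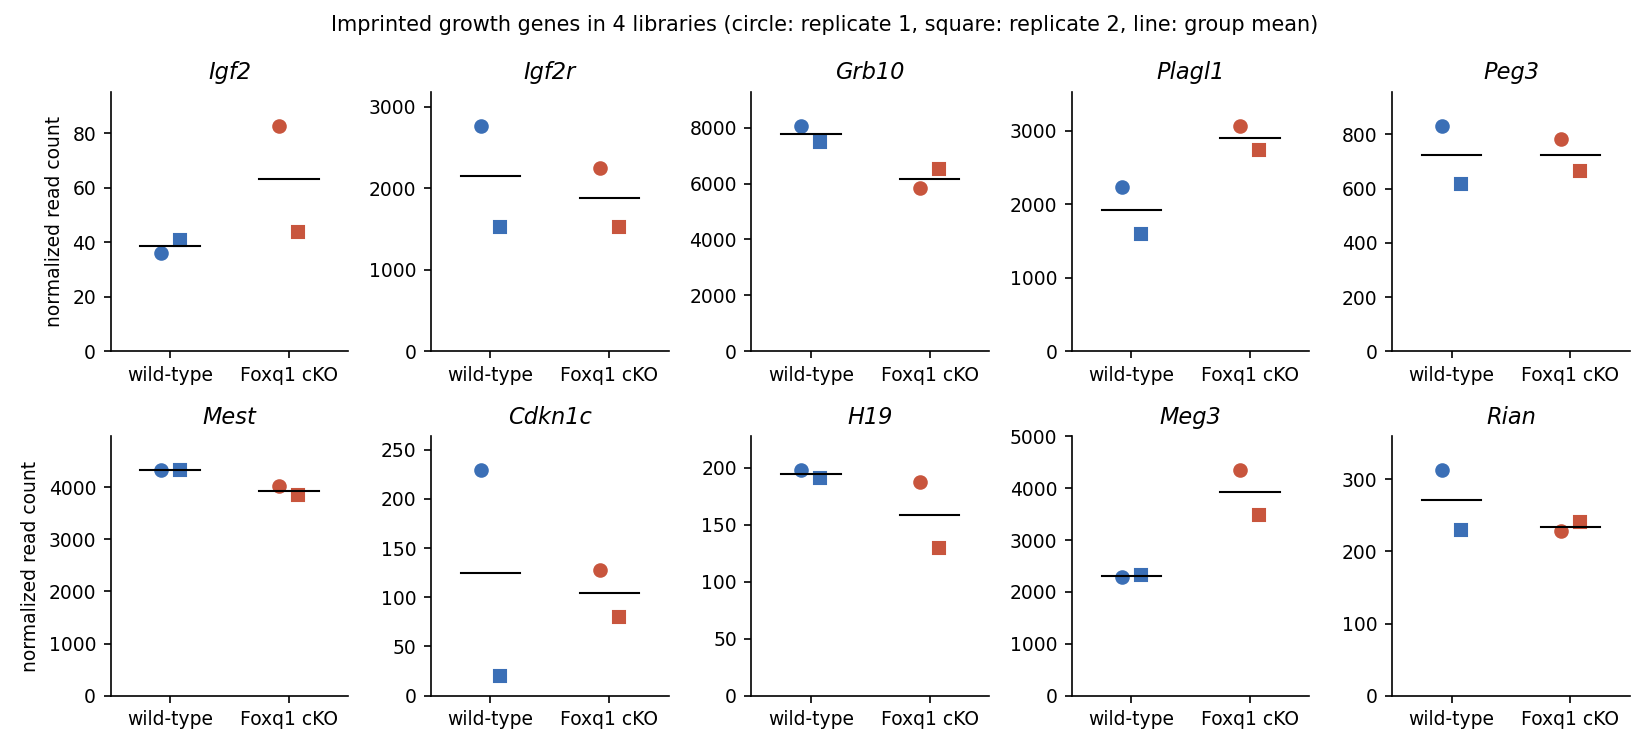
Normalized read count (vertical axis, linear from 0, scaled per gene) of each of the 10 imprinted growth genes in the wild-type (blue) and *Foxq1* cKO (red) samples. Circles are replicate 1, squares are replicate 2 and lines are group means. *Meg3* sits at 2284 and 2332 in wild-type against 4351 and 3489 in *Foxq1* cKO, and *Cdkn1c* shows the widest gap between 2 samples of 1 group, 229 and 19.9 in wild-type.

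*Igf2* encodes insulin-like growth factor 2, a fetal growth factor that signals through the receptors of *Igf1r* and *Insr*. It had 36.2 and 40.9 normalized read counts in wild-type against 82.7 and 43.7 in *Foxq1* cKO samples, from 43, 41, 76 and 43 reads. Both *Foxq1* cKO values lay above both wild-type values, but the second by little, and the 2 *Foxq1* cKO samples were 1.89-fold apart. The wild-type mean was 38.6 ± 3.28 (SD, n = 2) and the *Foxq1* cKO mean 63.2 ± 27.6 (SD, n = 2). The log2 fold change was 0.63 with a standard error of 0.89, and it did not pass the test (unadjusted p = 0.502, adjusted p = 0.917, limma). It was 0.18 without *Foxq1* cKO replicate 1 and 1.08 without *Foxq1* cKO replicate 2, so its size rested on which *Foxq1* cKO sample was kept. The 95% interval of the difference ran from -1.53 to 2.79 on the log2 scale, so it held both directions and the sign was not resolved. In the GRCm38 annotation, exons of *Igf2* on chromosome 7 share 3596 bp with a same-strand readthrough gene model, *Gm49394*. That model had no row in the table, and reads on the shared exons may not all have been counted for *Igf2*.

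*Igf2r* encodes the receptor that takes IGF2 up for breakdown in the lysosome. It lies on chromosome 17. It had 2768 and 1527 normalized read counts in wild-type against 2254 and 1521 in *Foxq1* cKO samples. The groups overlapped, and the spread within wild-type was wider than the difference between the groups. Its log2 fold change was -0.15 (standard error 0.36, unadjusted p = 0.689, limma), with a 95% interval from -1.03 to 0.73.

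*Grb10* on chromosome 11 encodes an adaptor protein that binds the insulin and IGF1 receptors and dampens their signal. It was read at 8061 and 7468 normalized read counts in wild-type against 5847 and 6506 in *Foxq1* cKO samples. Both *Foxq1* cKO samples were below both wild-type samples. The *Foxq1* cKO mean, 6176 ± 466 (SD, n = 2), was 79.5% of the wild-type mean of 7764 ± 419 (SD, n = 2). On the log2 scale the difference of -0.33 (standard error 0.15) missed the call (unadjusted p = 0.0648, adjusted p = 0.857, limma), with a 95% interval from -0.69 to 0.03.

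*Plagl1*, also called *Zac1*, encodes a zinc-finger transcription factor that is known to bind several other imprinted genes and to restrain cell division. It had 2243 and 1602 normalized read counts in wild-type against 3069 and 2734 in *Foxq1* cKO samples. Both *Foxq1* cKO samples exceeded the higher wild-type sample. The mean rose from 1923 ± 453 (SD, n = 2) to 2902 ± 236 (SD, n = 2), or 1.51-fold. The log2 fold change was 0.61 (standard error 0.24, unadjusted p = 0.0452, adjusted p = 0.857, limma). It ranked 591 of all genes by p. The call was lost without wild-type replicate 2 (0.37, unadjusted p = 0.187), without *Foxq1* cKO replicate 1 (0.53, unadjusted p = 0.196) and without *Foxq1* cKO replicate 2 (0.69, unadjusted p = 0.107), each from limma. It was also lost when each gene's variance was used without moderation and in limma without a trend (unadjusted p = 0.140 in each).

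The upstream sequence of *Plagl1*, which lies on chromosome 10, is shown because the gene was called. The 250 bases before its start, from RefSeq on the GRCm38.p6 build, lie at chr10:13090582-13090831 on the plus strand.
Plagl1 upstream: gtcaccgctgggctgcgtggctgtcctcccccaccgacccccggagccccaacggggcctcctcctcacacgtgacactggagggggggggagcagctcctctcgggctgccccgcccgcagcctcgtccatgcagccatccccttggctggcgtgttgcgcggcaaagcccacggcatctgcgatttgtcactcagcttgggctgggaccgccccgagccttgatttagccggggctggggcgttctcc
The study's own motif analysis of FOXQ1 binding centred on the letters GTTTC, read as GAAAC on the opposite strand. Neither occurs in this stretch. Of the members, 8 had at least 1 window in the RefSeq table, 15 windows of 300 bases in all, each from 250 bases before to 50 bases after a start. The letters were found on either strand in 6 of the 15 windows and in 4 of the 8 genes, *Igf2*, *Meg3*, *Grb10* and *Igf2r*. Over all 32851 windows 45% held them, and over the 27025 genes 48.9% did. A match of 5 letters is a description of the sequence and says nothing about binding.

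*Peg3* on chromosome 7 encodes a large zinc-finger protein linked to maternal care and to cell survival. It had 831 and 618 normalized read counts in wild-type against 784 and 666 in *Foxq1* cKO samples. Both *Foxq1* cKO values lay between the wild-type values. This gave a log2 fold change of 0.01 (standard error 0.35, unadjusted p = 0.973, limma), with a 95% interval from -0.83 to 0.86.

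*Mest* on chromosome 6, also called *Peg1*, encodes a protein related to hydrolases that is abundant in embryonic mesoderm. It had 4329 and 4322 normalized read counts in wild-type against 4016 and 3850.4 in *Foxq1* cKO samples. The 2 wild-type samples were nearly equal and both *Foxq1* cKO samples were lower, at 90.9% of the wild-type mean. A log2 fold change of -0.14 (standard error 0.16) did not pass the test (unadjusted p = 0.425, limma). Exons of *Mest* share 912 bp with *Copg2* on the opposite strand, and the sources used here do not state whether counting used the strand.

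*Cdkn1c* on chromosome 7 encodes p57, an inhibitor of cyclin-dependent kinases that holds cells out of the cycle. It was the least even member, at 229 and 19.9 normalized read counts in wild-type against 127 and 80.4 in *Foxq1* cKO samples. The wild-type samples were 11.5-fold apart and enclosed both *Foxq1* cKO samples. The sign of the difference depended on the scale, since the *Foxq1* cKO mean of 104 was 83.4% of the wild-type mean of 125 while the log2 fold change was 0.56 (standard error 1.26, unadjusted p = 0.673, limma). Its 95% interval ran from -2.51 to 3.63, so it held both directions and the sign was not resolved. Exons of *Cdkn1c* share 625 bp with *Gm44732* on the opposite strand, and the strand setting of the counting is not known here.

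**Figure D2:**
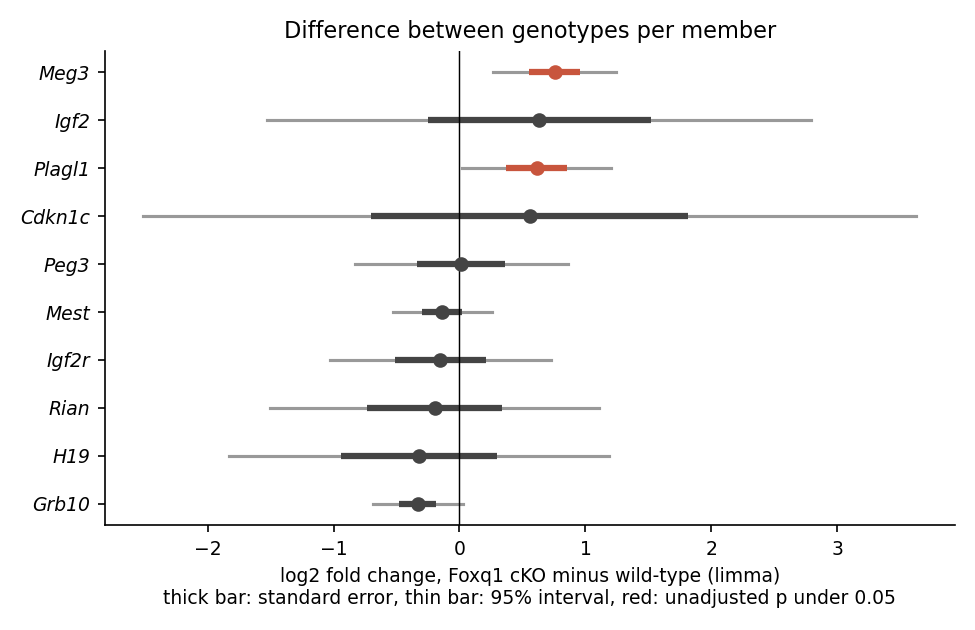
Log2 fold change of *Foxq1* cKO against wild-type (horizontal axis, limma) for the 10 imprinted growth genes. Points are estimates, thick bars standard errors, thin bars 95% intervals, and red marks *Meg3* and *Plagl1*, the members at an unadjusted p under 0.05. The intervals of *Meg3*, 0.27 to 1.24, and *Plagl1*, 0.02 to 1.21, lie above 0, and the interval of *Cdkn1c* is the widest.

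The noncoding members come from 2 domains. *H19* on chromosome 7 is a spliced RNA that shares enhancers with *Igf2* and is read from the opposite parental copy. *Meg3* and *Rian* follow each other on the plus strand of chromosome 12, in the domain of the paternally expressed Notch ligand gene *Dlk1*, and are known as parts of 1 long maternal transcription unit. *Rian* hosts small nucleolar RNAs.

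*Meg3* had 2284 and 2332 normalized read counts in wild-type against 4351 and 3489 in *Foxq1* cKO samples. The wild-type samples were close to each other and both *Foxq1* cKO samples were well above them. The mean rose 1.70-fold, from 2308 ± 34.2 (SD, n = 2) to 3920.3 ± 609.6 (SD, n = 2). The log2 fold change was 0.76 (standard error 0.20, unadjusted p = 0.00896, adjusted p = 0.857, limma), with a 95% interval from 0.27 to 1.24. It ranked 95 of all genes by p. On the recovered reads DESeq2 gave an adjusted p of 0.182. The call was lost without *Foxq1* cKO replicate 1, where the log2 fold change was 0.60 (unadjusted p = 0.0817, limma), and in limma without a trend (unadjusted p = 0.0654). Its exons share 1228 bp with *Gm26906* on the opposite strand.

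RefSeq lists 2 starts for *Meg3* on GRCm38.p6, and both windows are shown because it was the member with the smallest p. Capitals mark the letters GTTTC. The windows lie at chr12:109540746-109541045 and chr12:109545148-109545447, both on the plus strand.
Meg3 start 1: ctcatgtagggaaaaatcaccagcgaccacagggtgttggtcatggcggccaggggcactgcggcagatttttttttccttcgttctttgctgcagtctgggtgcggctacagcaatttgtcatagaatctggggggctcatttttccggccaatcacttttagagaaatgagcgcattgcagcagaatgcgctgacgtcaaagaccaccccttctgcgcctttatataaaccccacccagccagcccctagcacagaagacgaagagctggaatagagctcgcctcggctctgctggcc
Meg3 start 2: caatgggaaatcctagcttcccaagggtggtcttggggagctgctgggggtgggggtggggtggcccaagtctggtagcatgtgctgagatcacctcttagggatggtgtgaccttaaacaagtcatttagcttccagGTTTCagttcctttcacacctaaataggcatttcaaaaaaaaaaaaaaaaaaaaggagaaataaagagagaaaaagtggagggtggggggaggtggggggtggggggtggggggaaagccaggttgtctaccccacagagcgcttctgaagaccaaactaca
The upstream start has none of these letters, while the downstream one holds 1 match. The upstream window has 13 CpG dinucleotides and the downstream one 1. The read counts are sums over the gene and do not say which start was used.

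*Rian* had 313 and 229 normalized read counts in wild-type against 228 and 240.1 in *Foxq1* cKO samples, so the groups overlapped. The log2 fold change was -0.20 (standard error 0.54, unadjusted p = 0.728, limma). *H19* had 198 and 191 normalized read counts in wild-type against 187 and 129 in *Foxq1* cKO samples. Both *Foxq1* cKO values were lower, 1 of them only slightly, and the log2 fold change of -0.32 (standard error 0.62) did not pass the test (unadjusted p = 0.621, limma).

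Several members carry microRNA hairpins in their gene bodies, and their mature sequences are printed because they are what those transcripts can be cut into. The hairpins in the RefSeq table were 1 each in *Igf2*, *H19*, *Meg3* and *Mest*, 3 in *Rian* and none in the other members. Exons of *Meg3* in the GENCODE annotation also share 80 bp with *Mir1906-1*. Of the 14 mature sequences of these RefSeq hairpins no 2 shared a seed. Those of the called *Meg3*, of *H19* and of the best-known arms of the other hosts are given with the seed, bases 2 to 8, in capitals.
mmu-miR-770-5p in Meg3: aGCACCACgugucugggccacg
mmu-miR-770-3p in Meg3: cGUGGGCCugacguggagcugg
mmu-miR-675-5p in H19: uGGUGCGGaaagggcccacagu
mmu-miR-675-3p in H19: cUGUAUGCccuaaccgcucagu
mmu-miR-370-3p in Rian: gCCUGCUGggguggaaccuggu
mmu-miR-335-5p in Mest: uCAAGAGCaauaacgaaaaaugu
mmu-miR-483-3p in Igf2: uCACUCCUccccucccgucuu
These small RNAs were not measured here, and the level of a host transcript does not give the level of its microRNA.

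Genes that share a domain with a member were compared with it, and these neighbours were chosen after the values were seen. *Dlk1* had 325 and 361 normalized read counts in wild-type against 284 and 295 in *Foxq1* cKO samples, a log2 fold change of -0.24 (unadjusted p = 0.626, limma). *Mirg*, a noncoding microRNA host further along the same maternal unit, had 76.7 and 69.8 in wild-type against 2.18 and 43.7 in *Foxq1* cKO samples, from 91, 70, 2 and 43 reads. Its log2 fold change was -2.64 with a standard error of 1.43 (unadjusted p = 0.114, limma), and the 2 *Foxq1* cKO samples were 20.1-fold apart. In the *Dlk1* domain the values above were thus higher in both *Foxq1* cKO samples for *Meg3*, lower in both for *Dlk1* and *Mirg*, and overlapping for *Rian*, and of these only *Meg3* passed the test. *Airn*, the noncoding RNA that silences the paternal copy of *Igf2r* in other tissues, had 427 and 427 in wild-type against 605 and 496 in *Foxq1* cKO samples (log2 fold change 0.36, unadjusted p = 0.394, limma). *Kcnq1ot1*, the antisense RNA of the domain that holds *Cdkn1c*, had 1301 and 1382 in wild-type against 1102 and 870 in *Foxq1* cKO samples (log2 fold change -0.45, unadjusted p = 0.151, limma). *Copg2*, beside *Mest*, had 583 and 826 in wild-type against 724 and 834 in *Foxq1* cKO samples, and the groups overlapped.

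**Figure D3:**
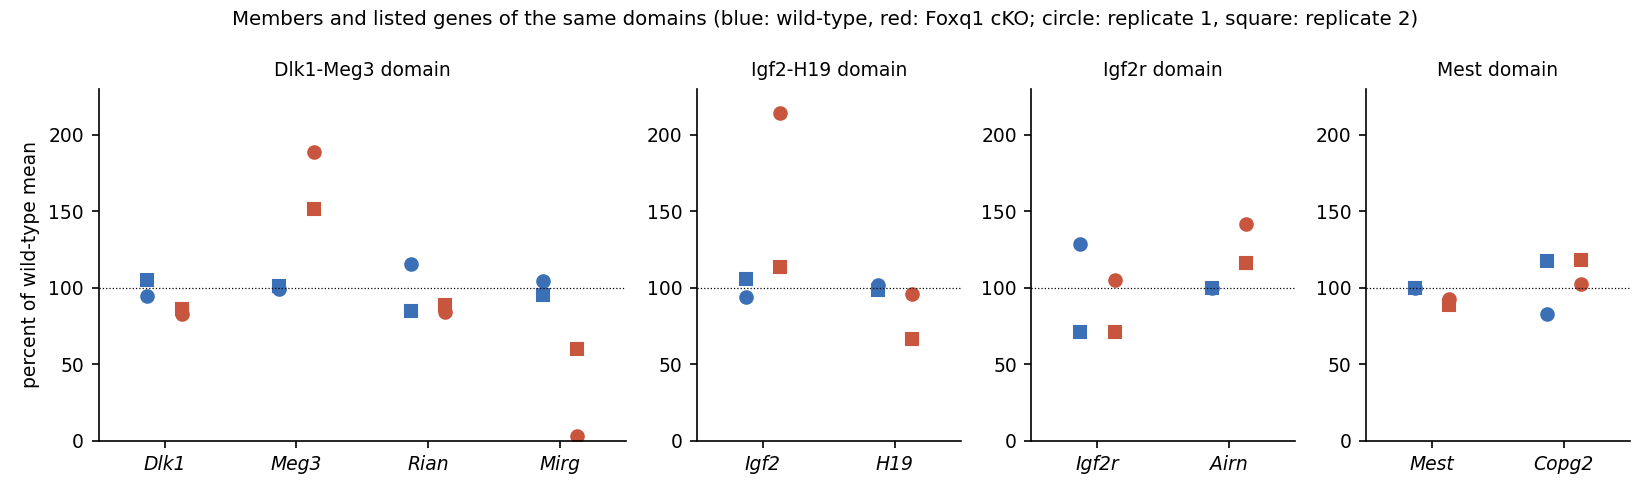
Members and listed genes of the same imprinted domains, each as percent of its wild-type mean (vertical axis) in the wild-type (blue) and *Foxq1* cKO (red) samples, circles replicate 1 and squares replicate 2, with a dotted line at 100. In the *Dlk1* domain both *Foxq1* cKO points lie above the wild-type points for *Meg3* and below them for *Dlk1* and *Mirg*, and of these genes only *Meg3* was called.

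In ratios of 2 members within a library the size factor cancels, except through the pseudocount of 1 added to each value. The log2 ratio of *Igf2* to *H19* was -2.42 and -2.20 in wild-type against -1.17 and -1.54 in *Foxq1* cKO samples, a difference of 0.95. The log2 ratio of *Igf2* to *Igf2r* was -6.22 and -5.19 in wild-type against -4.75 and -5.09 in *Foxq1* cKO samples, a difference of 0.78. The log2 ratio of *Meg3* to *Rian* was 2.86 and 3.34 in wild-type against 4.25 and 3.86 in *Foxq1* cKO samples, a difference of 0.95. In each of the 3 ratios both *Foxq1* cKO samples were above both wild-type samples. The exact two-sided permutation p was 0.333 for each, the smallest that 2 samples against 2 can give, so none could pass. The first 2 ratios share *Igf2*, and *Foxq1* cKO replicate 1 had its highest level.

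To compare the members with each other, normalized read counts were divided by the length of all exons in the GRCm38 annotation. On this scale, normalized reads per kb of exon, *Mest* was highest with means of 1096 in wild-type against 997 in *Foxq1* cKO samples. *Grb10* followed at 854 and 679.5, then *Plagl1* at 246 and 371, *Igf2r* at 231 and 203, and *Meg3* at 128 and 217. *H19* stood at 79.2 and 64.3, *Cdkn1c* at 61.1 and 50.9 and *Peg3* at 54.4 in both groups. The lowest were *Rian* at 14.9 and 12.8 and *Igf2* at 6.74 and 11.05. In the order by wild-type mean, the ranges over the 4 samples overlapped between *Plagl1* and *Igf2r*, *Igf2r* and *Meg3*, *H19* and *Cdkn1c*, *Cdkn1c* and *Peg3*, and *Rian* and *Igf2*. They did not overlap between *Mest* and *Grb10*, *Grb10* and *Plagl1*, *Meg3* and *H19*, or *Peg3* and *Rian*. On this scale *Igf1r* stood at 459.9 and 318 and *Insr* at 551 and 408 normalized reads per kb, far above *Igf2*. *Igf1* stood at 11.5 and 10.3. Exons of *Igf2* share 3596 bp with *Gm49394*, as given above, so its level and its place in the order may be understated. The length joins the exons of all annotated transcripts of a gene, 18.1 kb for *Meg3* and 18.2 kb for *Rian*. Levels of genes with several transcripts may thus be understated as well.

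**Figure D4:**
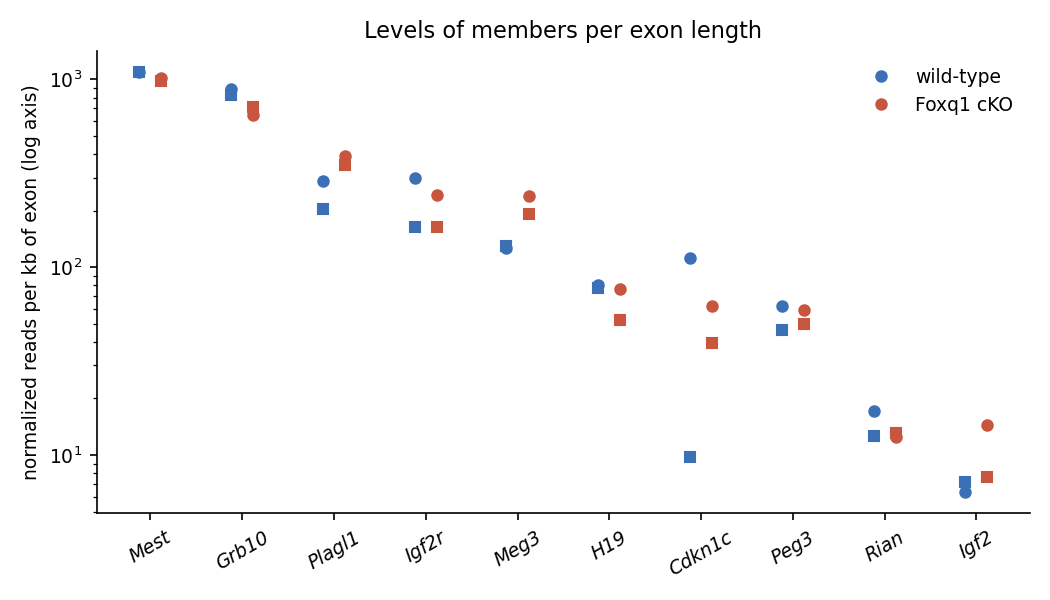
Normalized reads per kb of exon (vertical axis, log scale) of the 10 imprinted growth genes in the wild-type (blue) and *Foxq1* cKO (red) samples, circles replicate 1 and squares replicate 2, ordered by wild-type mean. *Mest* lies between 976 and 1097 and *Grb10* between 643 and 887, while *Rian* and *Igf2* are lowest.

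The other imprinted genes were taken from a list of 28 paternally and 32 maternally expressed genes. Of the 17 paternally expressed genes tested, 1 was called higher and none lower, beside 2.17% and 3.05% of all genes. The median log2 fold change of the 17 was -0.24. The higher one was *Usp29*, a ubiquitin-specific protease gene next to *Peg3* that is read from the same control region. It had 0.843 and 0.997 normalized read counts in wild-type against 92.5 and 31.5 in *Foxq1* cKO samples. These came from 1, 1, 85 and 31 reads, and the wild-type samples sat at the lowest count in the table. The ratio of reads per size factor was 66.8 with an exact 95% interval from 18.1 to 558 that covers counting error only. It passed the filter on low values only through the *Foxq1* cKO samples, so its call in limma is given as a description, and with a minimum mean of 50 it was not tested and the list held 0 calls. Its fitted log2 fold change of 4.85 depended on the pseudocount, at 3.33 with 5 and 5.73 with 0.1, and the call was lost without *Foxq1* cKO replicate 1 (4.08). *Nnat*, at 3638 and 2952 against 1828 and 2963, and *Impact*, at 1074 and 874 against 672 and 599 normalized read counts, did not pass (unadjusted p = 0.133 and 0.105, limma). In the paternal list 2 genes were higher and 5 were lower without overlap, beside 18% of all genes in each direction, and 10 overlapped.

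Of the 18 maternally expressed genes tested, none was called higher and 1 lower, beside 2.17% and 3.05% of all genes. The median log2 fold change of the 18 was -0.23. The lower one was *Trappc9*, which encodes a subunit of a vesicle tethering complex, with 1877 and 1670 normalized read counts in wild-type against 989.6 and 1279 in *Foxq1* cKO samples. Its log2 fold change was -0.65 (standard error 0.26, unadjusted p = 0.0469, adjusted p = 0.857, limma), and the call was lost when any 1 of the 4 samples was left out (-0.47 to -0.84, unadjusted p = 0.0634 to 0.223). It was also lost with quantile normalization (unadjusted p = 0.057), without a trend (0.105) and without moderation (0.0844). *Kcnq1*, the potassium channel gene beside *Cdkn1c*, had 2098 and 1697 in wild-type against 1291 and 1200.4 in *Foxq1* cKO samples (log2 fold change -0.60, unadjusted p = 0.0503, limma). *Asb4*, which encodes an adaptor for protein degradation known from embryonic vessels, had 977 and 615 in wild-type against 271 and 479 in *Foxq1* cKO samples (log2 fold change -1.10, unadjusted p = 0.0593, limma). In the maternal list 9 genes were lower without overlap and 1 was higher without overlap, beside 18% of all genes in each direction.

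Partners of IGF2 in signalling formed a list of 28 genes, of which 22 were tested. None was called higher, 3 were called lower, beside 3.05% of all genes called lower, and the median log2 fold change was -0.28. Without overlap 7 were lower and none was higher, beside 18% of all genes in each direction, and 15 overlapped. The IGF1 receptor gene *Igf1r* had 7704 and 7739 normalized read counts in wild-type against 5980 and 4705 in *Foxq1* cKO samples, 69.2% of the wild-type mean (log2 fold change -0.54, standard error 0.17, unadjusted p = 0.0192, limma). The insulin receptor gene *Insr* had 8302 and 6836 in wild-type against 5406 and 5809 in *Foxq1* cKO samples, 74.1% of the wild-type mean (log2 fold change -0.43, standard error 0.16, unadjusted p = 0.0395, limma). The kinase gene *Akt2*, which acts below both receptors, had 2055 and 2574 in wild-type against 1232 and 1489 in *Foxq1* cKO samples, 58.8% of the wild-type mean (log2 fold change -0.76, standard error 0.25, unadjusted p = 0.0212, limma). For these 3 genes every *Foxq1* cKO sample was below every wild-type sample, as for 18% of all genes tested, and the adjusted p was 0.857. The 3 calls were lost in limma without a trend (unadjusted p = 0.147 for *Igf1r*, 0.22 for *Insr* and 0.0737 for *Akt2*) and without moderation (unadjusted p = 0.0886, 0.104 and 0.0693), and that of *Insr* also with quantile normalization (unadjusted p = 0.0751). Leaving out samples ended each call as well (limma). For *Igf1r* it was lost without wild-type replicate 2 (-0.54, unadjusted p = 0.0521) and without *Foxq1* cKO replicate 2 (-0.37, unadjusted p = 0.118). For *Akt2* it was lost without wild-type replicate 2 (-0.60, unadjusted p = 0.0942) and without *Foxq1* cKO replicate 1 (-0.63, unadjusted p = 0.117). For *Insr* it remained only without wild-type replicate 2 (-0.57, unadjusted p = 0.024) and was lost without wild-type replicate 1 (-0.29, unadjusted p = 0.189) and without *Foxq1* cKO replicate 1 or 2 (-0.37, unadjusted p = 0.16, and -0.48, unadjusted p = 0.0923). The summed endothelial markers were also lower in both *Foxq1* cKO samples, 1 of them only slightly (415645 against 416237). Of the 15 markers, 10 had a negative and 5 a positive log2 fold change. Without overlap 7 were lower and 1 was higher, beside 18% of all genes in each direction, and 7 overlapped. *Flt1* was called lower, beside 3.05% of all genes, and no marker was called higher. Whether this bears on the 3 calls was not tested.

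Factors that keep or read imprints formed a list of 28 genes, of which 25 were tested. Beside 2.17% of all genes called higher and 3.05% called lower, only *Ctcf* was called here, and it was higher. It encodes the zinc-finger protein that binds the unmethylated control region between *Igf2* and *H19*. It had 383 and 501 normalized read counts in wild-type against 1170.3 and 799 in *Foxq1* cKO samples, 223% of the wild-type mean (log2 fold change 1.14, standard error 0.39, unadjusted p = 0.0248, adjusted p = 0.857, limma). The call was lost without wild-type replicate 1 (0.95, unadjusted p = 0.065) and without *Foxq1* cKO replicate 1 (0.87, unadjusted p = 0.177), and with all samples without moderation (unadjusted p = 0.0775). The median of the list was 0.08. Of the 25, 7 were higher and 1 was lower without overlap, beside 18% of all genes in each direction, and 17 overlapped. The histone methyltransferase genes *Setdb1*, at 921 and 1228 against 1429 and 1751, and *Ehmt2*, at 986 and 761 against 1392 and 1187 normalized read counts, did not pass (unadjusted p = 0.0901 and 0.101, limma).

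Because *Cdkn1c* restrains the cell cycle, other inhibitors of cyclin-dependent kinases, their partners and proliferation genes were listed, 20 genes with 19 tested. *Mki67*, a marker of dividing cells, was called higher and none was called lower, beside 2.17% and 3.05% of all genes. The median log2 fold change of the 19 was 0.25. *Mki67* had 748 and 793 normalized read counts in wild-type against 2661 and 1545 in *Foxq1* cKO samples (log2 fold change 1.40, standard error 0.33, unadjusted p = 0.00578, adjusted p = 0.857, limma). On the recovered reads DESeq2 gave it an adjusted p of 0.0179. Without *Foxq1* cKO replicate 1 its log2 fold change was 1.004 (unadjusted p = 0.058, limma), and without moderation its unadjusted p was 0.0713. *Top2a* had 2646 and 1763 in wild-type against 3163 and 3440.4 in *Foxq1* cKO samples (unadjusted p = 0.0512, limma). *Ccnb1*, the mitotic cyclin, had 594 and 779.6 in wild-type against 1097 and 1104 in *Foxq1* cKO samples (unadjusted p = 0.0677, limma). Of the 19, 7 were higher without overlap and only *Ccnd1* was lower without overlap. The other 11 overlapped, among them *Pcna*, *Ccna2* and *Ccne2*. Over all genes, 18% lay in each direction without overlap. In cultured primary brain ECs the study reported comparable proliferation of both genotypes by EdU and Ki67 staining, a measure unlike RNA of sorted cells.

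**Figure D5:**
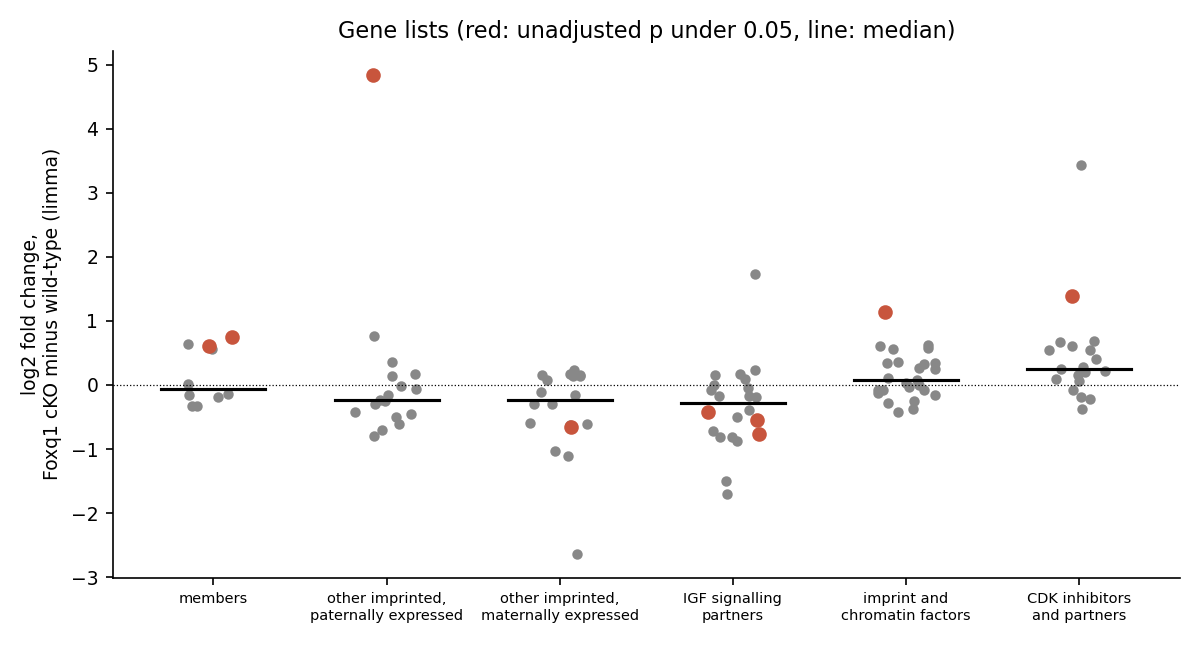
Log2 fold change of *Foxq1* cKO against wild-type (vertical axis, limma) for each tested gene of the 10 imprinted growth genes and of 5 other lists. Points are genes, black lines list medians and red marks an unadjusted p under 0.05. The red points are *Meg3* and *Plagl1* among the members, *Usp29*, *Trappc9*, *Igf1r*, *Insr*, *Akt2*, *Ctcf* and *Mki67*, and the medians run from -0.28 to 0.25. *Usp29* passed the filter on low values only through the *Foxq1* cKO samples.

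The profiles of *Igf2*, *H19* and *Meg3* over the 4 samples were set beside those of the 35 other imprinted genes tested, by the root mean square difference of log2 values centred per gene. The nearest to *Igf2* were *Airn* at 0.26 and *Ago2* at 0.34. The nearest to *H19* were *Tssc4* at 0.02 and *Kcnq1ot1* at 0.11. The nearest to *Meg3* were *Airn* at 0.20 and *H13* at 0.35. With only 4 samples these distances describe likeness and carry no test.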

How the data were processed

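RNA was sequenced from 2 wild-type and 2 *Foxq1* cKO samples. The labels gave each sample its group and replicate number. The authors deposited 1 table of normalized counts, a signal per gene of reads divided by a size factor per sample. The submitters' processing notes name Bowtie2 2.2.3, TopHat2 2.0.12, HTSeq 0.6.0 and the mm9 build. The annotation, the strand setting of the counting and the tool behind the size factors were not given in the sources used here. The study calls the sequencing Smart-seq2-based, and its methods section names TRIzol extraction and Illumina sequencing without a library kit. No molecular identifiers are mentioned, so intervals on reads cover counting error only.

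The table's 1207361 lines were reduced to 12693 gene symbols, of which 8 had 2 identifiers. Every listed gene had at least 1 read per sample and 21 in total, so a gene lost in 1 sample has no row. Values were whole multiples of 1 read per sample within a tolerance of 0.01. In wild-type replicate 2 a read is worth close to 1, so its whole reads were less plainly checked, and tests on recovered reads were used only as alternatives. Samples held 21466436, 17901203, 15827166 and 16963866 reads.

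The main test was limma 3.58.1 in R 4.3.3 (lmFit and eBayes with a trend) on log2 of the deposited value plus a pseudocount of 1, for the 12472 genes with a mean of at least 10, with Benjamini-Hochberg adjustment over all of them. The median standard error was 0.496. Alternatives were pseudocounts of 0.1 and 5, no filter, a minimum mean of 50, quantile and TMM scaling, eBayes without a trend, no moderation, edgeR 4.0.16 (quasi-likelihood), DESeq2 1.42.0, the replicate number as a block, and each sample left out. The test was first run on simulated counts with planted changes larger than any fitted for the members. That run does not cover changes of the members' size. Exon lengths and overlaps came from GENCODE M21 and sequences from RefSeq, both on GRCm38, which held 12685 of the 12701 identifiers. No coordinate was converted from mm9.

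The members and lists were chosen with earlier results of these data known. The genes named were all members, and of each other list the 3 with the smallest unadjusted p and every one with an unadjusted p under 0.05 up to 8. For *Igf2*, *H19* and *Meg3* the 2 other imprinted genes with the nearest profile were also named. Python 3.11.15 was used for tables and figures.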

Additional observations from a re-analysis of the deposited data

How the results depend on the processing

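Over the 11 alternatives that kept all samples, 104 of 110 results for the members stayed on the same side of the threshold with the same sign, 3 were no longer called, 1 became called and 2 reversed. The reversed ones were both *Cdkn1c*, at -0.26 on the log2 scale in edgeR and -0.26 in DESeq2. The number of members called was 2, and 0 in limma without a trend. *Mest* was called only without moderation (unadjusted p = 0.0456). Over all genes, DESeq2 called 59 at an adjusted p under 0.05 where limma called 0. The other lists held 7 calls in all, 4 without a trend, 2 without moderation and 11 in DESeq2. Each of these counts holds *Usp29*, whose call is only a description, as given above. With the replicate block, 2 members were called, as without it, and 693 genes in place of 651, while *Trappc9* was no longer called (unadjusted p = 0.0601), *Top2a* became called (0.0469) and the cell cycle list held 3 calls in place of 1. The replicate numbers share only a label here, since the deviations of same-numbered samples correlated at 0.03. With 1 sample left out, the lone sample of a group is assumed to vary like the others. The members called then ran from 0 to 2, the calls over all genes from 276 (without *Foxq1* cKO replicate 1) to 1569 (without wild-type replicate 2), and the calls in the other lists from 1 to 11. The log2 fold changes ran from -0.42 to 0.027 for *Rian*, -0.20 to 0.23 for *Peg3*, -1.17 to 2.29 for *Cdkn1c* and -0.58 to 0.28 for *Igf2r*, so their direction was not fixed. The difference in the ratio of *Igf2* to *H19* ran from 0.77 to 1.14, of *Igf2* to *Igf2r* from 0.27 to 1.30 and of *Meg3* to *Rian* from 0.71 to 1.19. The cause of these moves was not tested. *Cdkn1c*, at 20 to 272 reads per sample, and *Igf2*, at 41 to 76, had the largest standard errors among the members, 1.26 and 0.89.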
